A study of Rattus norvegicus with 54 samples.

Results

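The genes described here encode the collagens, laminins, fibrillins and other proteins of the extracellular matrix, with the enzymes that crosslink or cut them and a receptor that binds them. They were taken by symbol from the authors' 3 deposited gene lists: collagen and laminin chains, fibrillins, fibulins, lysyl oxidases, ADAM and matrix metalloproteinase family members, integrin subunits, the SPARC and thrombospondin families, and the single genes Dcn, Ogn, Lum, Bgn, Fn1, Mgp and Postn. That rule found 29 genes, measured by 37 probe sets (groups of oligonucleotides that report 1 transcript region on an Affymetrix array), of 2844 listed genes named by 1 symbol. Of the 37 probe sets, 29 stood in the authors' gubernaculum list, 10 in their wild type list and 21 in their testis list, and 3 stood in all of them (Col14a1, Lama2 and Col5a1 probe set 1376099_at). Because the authors drew these lists from the same arrays, a difference of a listed gene in a contrast behind its list is a description here and no independent evidence of its direction. Itgb1bp2, which encodes the muscle protein melusin, and Itgb4bp, an older symbol of the translation initiation factor gene Eif6, matched by their letters alone and are no matrix genes.

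The study profiled the fetal gubernaculum, the ligament that draws the testis towards the scrotum, and the fetal testis in rats of the LE/orl strain, in which cryptorchidism (an undescended testis) is inherited, and in LE/wt rats. No allele is given in the labels, so the comparison is of 2 strains and not of a single mutation. Each of the 54 arrays held RNA of 1 fetus. The 34 gubernaculum arrays comprised LE/orl males at gestational day (GD) 18, 19 and 20 (left side, n = 4 each) and GD20 (right side, n = 3), then LE/wt males of the same days and sides with the same n, and LE/wt females at GD18 with both sides combined (n = 4). The 20 testis arrays comprised LE/orl and LE/wt at GD19 and at GD17 (n = 5 each). Right gubernacula at GD20 came from the same fetuses as left ones of the same letter. RNA of the gubernaculum went through another amplification protocol than RNA of the testis, so levels are not compared between the tissues.

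Fibrillar collagens give connective tissue its tensile strength, and lysyl oxidases crosslink them and elastin. Laminins and type IV collagen form the basement membrane on which epithelial, muscle and endothelial cells rest, while fibrillins and fibulins build the microfibrils and elastic fibres. In the fetal testis, basement membrane surrounds the seminiferous cords and the interstitium is filled by collagen-bearing stroma. The gubernaculum is a cone of mesenchyme with a rim of striated muscle, and it enlarges and then remodels while the testis descends.

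The promoters of Lama2, whose signal differed most between days in the testis, and of Col1a2, which differed between strains in both tissues, are shown because both genes recur in the results. Sequences are RefSeq's on GRCr8, from 250 bases before to 50 bases after the gene's start, and capitals mark CCAAT (or ATTGG, its other strand) and TATAAA, the boxes bound by NF-Y and by the TATA-binding protein. Lama2 lies at chr1:19491896-19492195 on the + strand and Col1a2 at chr4:33518307-33518606 on the + strand.
Lama2: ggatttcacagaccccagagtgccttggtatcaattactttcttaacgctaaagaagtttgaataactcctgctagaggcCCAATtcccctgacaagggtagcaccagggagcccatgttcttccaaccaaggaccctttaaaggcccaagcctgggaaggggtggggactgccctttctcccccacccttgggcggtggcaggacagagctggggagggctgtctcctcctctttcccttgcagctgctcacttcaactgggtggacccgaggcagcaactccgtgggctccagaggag
Col1a2: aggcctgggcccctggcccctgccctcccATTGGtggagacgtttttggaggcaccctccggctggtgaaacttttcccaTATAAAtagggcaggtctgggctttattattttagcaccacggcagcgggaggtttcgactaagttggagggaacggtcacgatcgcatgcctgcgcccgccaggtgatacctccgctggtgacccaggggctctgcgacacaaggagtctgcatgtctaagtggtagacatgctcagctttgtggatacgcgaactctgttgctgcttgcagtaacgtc
Promoters were at hand for 21 of the 29 genes. CCAAT on either strand was in 6 of these 21 (28.6%), against 37.7% of all 27457 promoters of the same length, and TATAAA on either strand was in 3 of 21 (14.3%), against 14.3% of all. Neither word was more frequent in the matrix genes than in promoters at large, and a match is a run of letters, not a shown binding site.

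Values are the deposited log2 signals, so a difference of 1 is a doubling. Differences are the later or LE/orl or male group minus the other, with standard errors from a limma fit over all probe sets that reached log2 5 in enough arrays (8872 in the gubernaculum, 8013 in the testis). A probe set was called where its Benjamini-Hochberg adjusted p over that whole fit was under 0.05. All 37 selected probe sets entered the gubernaculum fit, and 36 entered the testis fit, Itgb1bp2 being below the minimum. Counts over 37 and 36 include the letter-only matches Itgb1bp2 and Itgb4bp, beside 35 probe sets of matrix genes. Lhcgr, the luteinising hormone receptor of Leydig cells, lay between 6.99 and 9.87 in the testis arrays and between 1.77 and 1.98 in the gubernaculum arrays, and Ckm, muscle creatine kinase, lay between 8.83 and 13.1 in the gubernaculum arrays. In the testis Ckm lay between 2.10 and 2.52 except for LE/wt GD19 replicate D at 7.54, where the embryonic myosin gene Myh3 was also high (9.44). Without that array 4 rather than 5 selected probe sets were called between strains at GD19. LE/orl GD17 replicate D also held muscle transcripts, with Acta1 (skeletal actin) at 7.06 and Myh3 at 6.71, against 2.50 to 2.56 and 2.56 to 3.37 in LE/wt testes of GD17. Without it 27 selected probe sets were lower and 0 higher in LE/orl at GD17, as with it.

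In the LE/orl testis at GD17 most of the selected probe sets were lower than in LE/wt, and most of these stood in the authors' testis list. Of the 36 probe sets 27 were lower and 0 higher, while over all 8013 probe sets 11.2% were lower and 7.24% higher. The median difference of the selected probe sets was -0.67, and that of all probe sets was -0.0019. For 22 of the 27 the arrays of the strains did not overlap, and 20 of these stood in the authors' testis list. How many of all probe sets did not overlap was not counted. The authors chose 21 of the 36 for a strain difference in the testis, and all 21 were among the lower ones. Of the 15 tested probe sets outside the testis list 6 were lower (40.0%), and 2 of those, Loxl1 and Adamts7, did not overlap between strains. Those 6 belonged to the fibrillar collagens, the crosslinking enzymes and the proteases. In every other class the lower probe sets were all listed ones, so the spread over classes follows the authors' choice. The 5′ minus 3′ signal of the beta-actin and GAPDH controls, a measure of RNA and labelling quality, was -1.18 to -0.999 in LE/orl testes and -1.45 to -1.19 in LE/wt testes at GD17, without overlap. With this signal as a covariate 25 probe sets were lower and 0 higher, while the shares of all probe sets above are from the fit without it. Since the arrays hold RNA of the whole testis, fewer matrix-producing cells and less RNA per cell cannot be told apart.

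**Figure D1:**
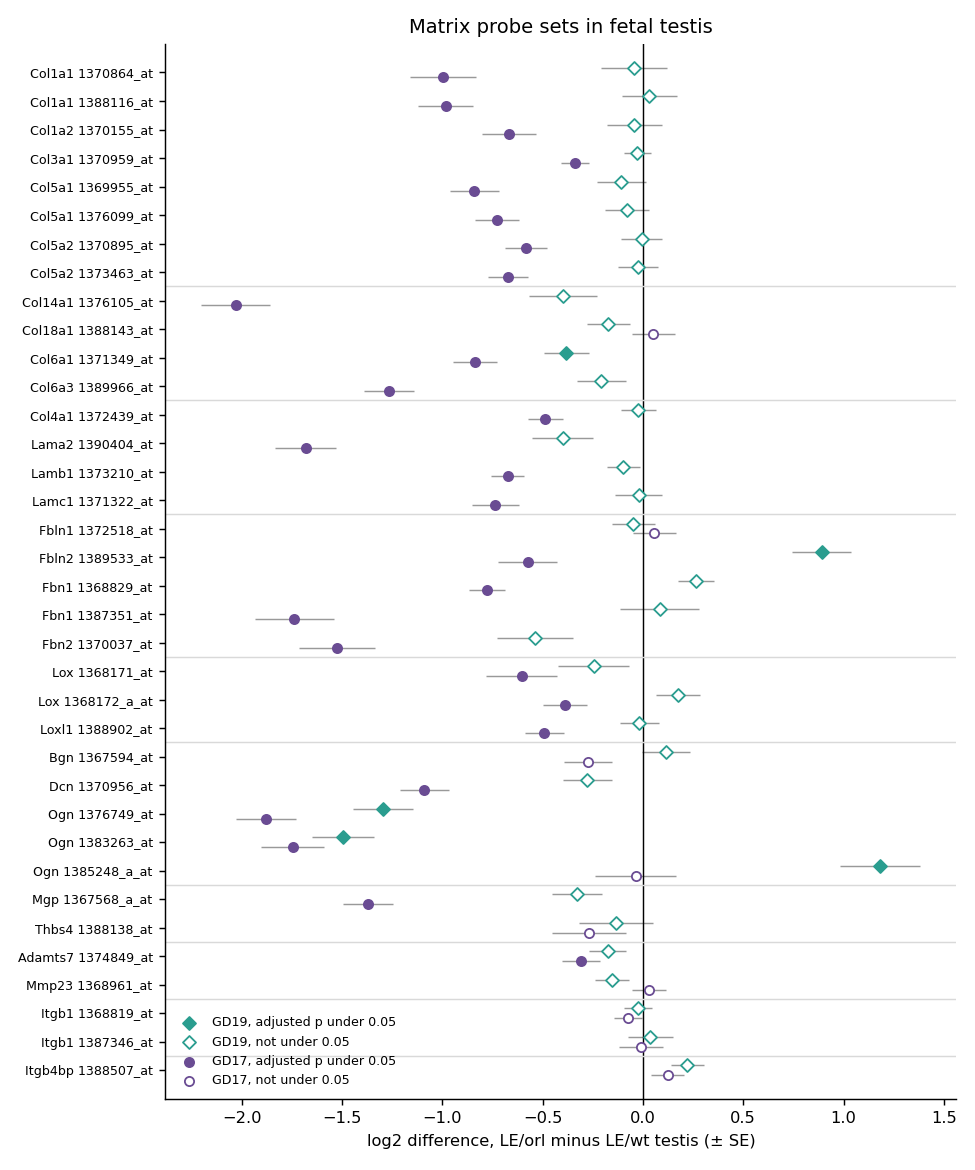
Log2 difference LE/orl minus LE/wt in the testis at GD19 and at GD17 for each selected probe set, by class, with standard errors (n = 5 arrays a group). Filled points have an adjusted p under 0.05; 27 of 36 probe sets were lower at GD17, and 3 were lower and 2 higher at GD19.

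The fibrillar collagens were lower together. All 8 probe sets of Col1a1, Col1a2 (the chains of type I collagen), Col3a1 (type III) and Col5a1 and Col5a2 (type V, which sets fibril diameter) were called at GD17, with differences from -0.997 to -0.340. Col1a2, which is not in the testis list, read 10.59, 9.85, 9.96, 10.45 and 10.42 in LE/orl testes, against 11.02, 10.53, 11.12, 10.95 and 11.01 in LE/wt testes. Only LE/wt replicate B fell inside the LE/orl range. The difference was -0.67 ± 0.14 (SE; limma adjusted p = 0.00178), a 1.59-fold lower signal. The Col5a2 probe set 1370895_at, also outside the testis list, differed by -0.58 ± 0.10 (limma adjusted p = 0.000517).

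Among the other collagens the strain gap was wider. Col14a1, a collagen that decorates the surface of collagen fibrils, read 6.42, 5.15, 5.60, 5.37 and 5.74 in LE/orl testes at GD17, against 7.91, 7.23, 7.94, 7.64 and 7.71 in LE/wt testes. Every LE/orl array was below every LE/wt array, and the difference of -2.03 ± 0.17 was 4.09-fold, the lowest of the 36. Col6a3, a chain of the beaded type VI collagen filaments, read 7.03, 6.59, 6.63, 6.51 and 7.09 in LE/orl testes, against 8.23, 7.66, 8.30, 8.15 and 7.85 in LE/wt testes. These arrays did not overlap either, with a difference of -1.27. Col18a1, a collagen of basement membranes, differed by 0.05 and was not called.

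The basement membrane genes Col4a1, Lama2, Lamb1 and Lamc1 were lower in 4 of 4. All 4 stood in the authors' testis list, so this count describes chosen probe sets and is no independent evidence. Lama2, the laminin chain of muscle and nerve basement membrane, read 4.65, 4.44, 4.76, 4.62 and 4.78 in LE/orl testes, against 6.35, 5.86, 6.63, 6.53 and 6.29 in LE/wt testes. The LE/orl mean of 4.65 lies under the minimum signal of log2 5, so the 3.21-fold difference rests on a dim side. Its partner chains differed less, with Lamc1 1.67-fold and Lamb1 1.60-fold lower.

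Elastic fibre genes were lower in 4 of 5 probe sets, and those 4 all stood in the testis list. The fibrillin gene Fbn1 is measured by 2 probe sets, which differed by -1.74 (1387351_at) and -0.78 (1368829_at). Probe set 1387351_at read 7.15, 6.99, 7.29, 7.51 and 8.08 in LE/orl testes, against 9.37, 8.88, 9.26, 9.27 and 8.94 in LE/wt testes. Fbn2, the fibrillin of fetal tissue, differed by -1.53, and Fbln1, which encodes a fibulin of elastic fibres and basement membranes, was not called at 0.06. The crosslinking enzymes were lower in 3 of 3 probe sets, none of them from the testis list. Loxl1, needed for elastic fibre crosslinking, read 8.05, 7.73, 7.47, 7.57 and 7.76 in LE/orl testes, against 8.36, 8.07, 8.22, 8.13 and 8.26 in LE/wt testes. The groups did not overlap, and the difference was -0.49 ± 0.10 (limma adjusted p = 0.00151). The Lox probe sets differed by -0.61 (1368171_at) and -0.39 (1368172_a_at), and both overlapped between strains.

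The small leucine-rich proteoglycans bind collagen fibrils and limit their width. Dcn (decorin) read 9.76, 8.86, 9.12, 9.06 and 9.16 in LE/orl testes at GD17, against 10.40, 10.13, 10.28, 10.15 and 10.45 in LE/wt testes, a difference of -1.09 without overlap. Ogn (osteoglycin) was lower in LE/orl by 2 of its 3 probe sets, -1.88 (1376749_at) and -1.75 (1383263_at), while 1385248_a_at differed by -0.04. Bgn (biglycan) differed by -0.28 and was not called. Mgp, which restrains calcification, differed by -1.37, while Thbs4 (thrombospondin 4, of tendon and muscle) was not called at -0.27. The protease gene Adamts7 differed by -0.31 ± 0.09 (limma adjusted p = 0.0244) and Mmp23 by 0.03. The integrin beta-1 gene Itgb1, the shared subunit of many collagen and laminin receptors, differed by -0.07 and -0.01 in its 2 probe sets.

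**Figure D2:**
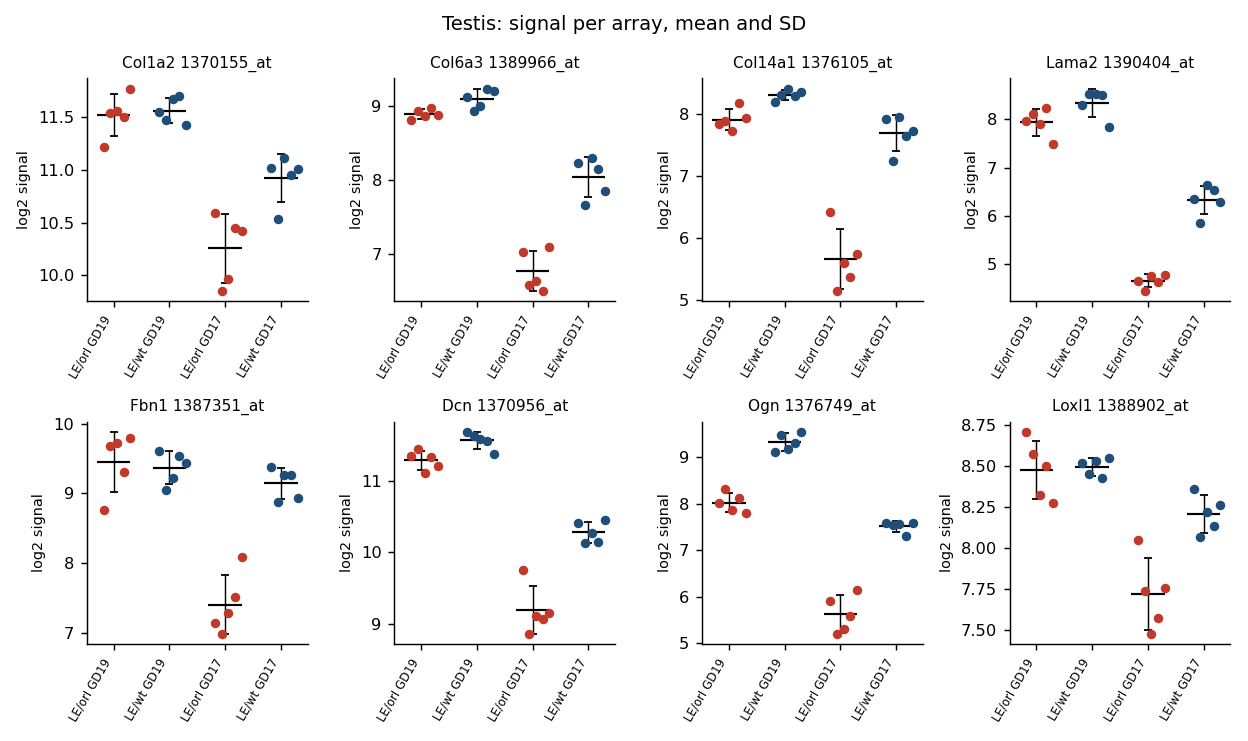
Log2 signal of Col1a2, Col6a3, Col14a1, Lama2, Fbn1 (1387351_at), Dcn, Ogn (1376749_at) and Loxl1 in each testis array, with the mean and SD of each group (n = 5). In all panels LE/orl GD17 has the lowest mean, and for Lama2 its 5 arrays lie between 4.44 and 4.78.

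At GD19 few matrix genes differed between strains. Of the 36 probe sets 2 were higher (5.6%) and 3 lower (8.3%) in LE/orl, against 5.24% higher and 8.1% lower over all probe sets, so the count is near the background. The 8 fibrillar collagen probe sets differed by -0.11 to 0.03 with 0 called. Lama2 read 7.96, 8.11, 7.90, 8.23 and 7.49 in LE/orl testes, against 8.30, 8.52, 8.53, 8.51 and 7.84 in LE/wt testes, a difference of -0.40 ± 0.15 that was not called (limma adjusted p = 0.0909). Col14a1 likewise differed by -0.40 ± 0.17 (limma adjusted p = 0.133), with LE/orl arrays between 7.73 and 8.16 and LE/wt arrays between 8.19 and 8.40.

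The probe sets called at GD19 were Fbln2, 3 of Ogn and Col6a1. Fbln2, a fibulin of basement membranes and elastic fibres, read 7.35, 7.37, 7.29, 7.09 and 7.78 in LE/orl testes, against 6.92, 6.28, 6.69, 6.40 and 6.14 in LE/wt testes. Every LE/orl array was above every LE/wt array, by 0.89 ± 0.15 on average. Col6a1, another type VI chain, differed by -0.38 ± 0.11 (limma adjusted p = 0.0258). Ogn was split by probe set: 1376749_at read 8.01, 8.32, 7.87, 8.11 and 7.81 in LE/orl testes, against 9.11, 9.48, 9.17, 9.30 and 9.54 in LE/wt testes. Probe set 1385248_a_at read 9.20, 9.14, 8.92, 9.17 and 8.79 in LE/orl testes, against 7.63, 7.93, 7.91, 7.88 and 7.97 in LE/wt testes. Neither pair of groups overlapped, the first probe set being lower in LE/orl by 1.30 and the second higher by 1.18. The array measures different stretches of 1 gene with these probe sets, so a strain direction for Ogn as a gene is not given here.

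The change of the strain difference between days was itself tested. It was positive, the LE/orl shortfall being smaller at GD19, in 23 of 36 probe sets and negative in 0, against 4.94% and 4.7% of all probe sets. With the 5′ minus 3′ control signal as a covariate 9 were positive and 0 negative, while the shares of all probe sets are from the fit without it. The median change was 0.58, and that of all probe sets -9e-04. Of the 23 positive probe sets 18 were among the 21 of the testis list. The authors chose those from these arrays for a strain difference, so their change is a description and no independent evidence. Outside the testis list 5 of 15 changed so, with a median of 0.14 over the 15. These were Lox 1368172_a_at by 0.56, Col1a2 by 0.63, Col5a2 1370895_at by 0.58, Ogn 1385248_a_at by 1.22 and Loxl1 by 0.47. Fibrillar collagens changed in 8 of 8 probe sets, by 0.31 to 1.01. Of the markers, Fbn1 changed by 1.82 and 1.04, Col14a1 by 1.63, Lama2 by 1.28, Col6a3 by 1.06 and Dcn by 0.81. Ogn 1376749_at (0.58) and 1383263_at (0.25) were not called.

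The increase between GD17 and GD19 was present in each strain and wider in LE/orl. In LE/orl testes 33 of 36 probe sets were higher at GD19 and 3 lower, against 25.3% and 30.2% of all probe sets. In LE/wt testes 27 were higher and 1 lower, against 18.9% and 22.7% of all. Of the 21 probe sets in the testis list 21 were higher in LE/orl and 17 in LE/wt, with medians of 1.48 and 0.55. Of the 15 outside it 12 were higher and 3 lower in LE/orl, with a median of 0.46. In LE/wt 10 of those 15 were higher and 1 lower, with a median of 0.34. These comparisons share arrays with the strain comparisons above, and the testis list was drawn from the same arrays. Lama2 had the largest difference in both strains: its LE/orl mean was 7.94 ± 0.28 at GD19 and 4.65 ± 0.14 at GD17 (SD, n = 5 each), a 9.78-fold difference from a mean under the minimum. In LE/wt Lama2 averaged 8.34 ± 0.30 at GD19 and 6.33 ± 0.30 at GD17 (SD, n = 5 each), a 4.03-fold difference.

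Other genes higher at GD19 in both strains came from the collagens, laminins, elastic fibre genes, crosslinking enzymes and proteoglycans, with Itgb1, Mgp and Thbs4. No protease was higher in both. In LE/orl testes Ogn was higher at GD19 by 2.39, 1.92 and 2.14 in its 3 probe sets, Col14a1 by 2.25, Col6a3 by 2.12, Dcn by 2.10 and Fbn1 by 2.05 and 1.46. In LE/wt testes Ogn was higher by 1.81, 1.67 and 0.93, Thbs4 by 1.31, Dcn by 1.28 and Lox 1368171_at by 1.25. The LE/wt day difference was not called for Fbn2 (0.15), Fbln2 (-0.11), Lamc1 (0.01) or Fbn1 1387351_at (0.23), all of which were higher at GD19 in LE/orl. Mmp23 (-0.35), Col18a1 (-0.32) and Itgb4bp (-0.22) were lower at GD19 in LE/orl, and Itgb4bp (-0.32) was lower in LE/wt. Markers of other cells, looked up only in the authors' lists, differed between the days as well. Higher at GD19 in LE/orl and in LE/wt were Lhcgr (1.61 and 1.32), the smooth and peritubular muscle genes Acta2 (1.53 and 0.87) and Tagln (1.67 and 1.69), and the endothelial cadherin gene Cdh5 (0.81 and 0.36). The embryonic globin gene Hbe1 was lower (-2.44 and -2.11), and the red cell enzyme gene Car1 was lower in LE/orl (-4.32) and not called in LE/wt (-0.93). Their part in the day differences was not tested.

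Some markers of other testis cells differed between strains at GD17 too. The markers looked up all stood in the authors' lists, which were drawn from these same arrays, and no Sertoli or germ cell gene was among them. Lhcgr differed by -1.08, Acta2 and Tagln by -0.61 and -0.42 and Cdh5 by -0.59, all lower in LE/orl, while the endothelial Emcn was not called at -0.10. Car1 was higher by 3.91, but Hbe1 was not called at 0.20. Of the neuron and glia list Uchl1 was higher by 0.45, Ngfr was not called at -0.30, and the 2 probe sets of Stmn2 lay between 2.38 and 2.86 in both strains. Des (desmin), the 1 skeletal muscle marker tested in the testis, was not called at -0.17. Their part in the matrix differences was not tested. A second list of 74 matrix genes outside the symbol rule, also written with results of these data known, had 24 tested probe sets in the testis. All 24 stood in the authors' lists, so the counts that follow are no independent evidence for matrix genes. At GD17, 13 of the 24 were lower in LE/orl and 0 higher, against 11.2% of all probe sets lower. At GD19, 5 were lower and 0 higher, against 8.1% of all lower. Among them at GD17 were Cspg2 (versican), with 3 probe sets from -1.52 to -1.30, Tnc (tenascin C) at -1.31, the collagen lysyl hydroxylase gene Plod2 at -0.70 and Nid1 (nidogen) at -0.43.

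The gubernaculum arrays did not fall out by their labels alone, which bears on each of the comparisons that follow. Grouped by correlation over all probe sets, they formed 3 sets. The first held 13 of the 15 LE/orl arrays. The second held the 8 LE/wt male arrays of GD18 and GD19. The third held the 4 LE/wt females, the 7 LE/wt males of GD20, and 2 LE/orl arrays, replicate A of GD18 and replicate D of GD19. The centred profiles of these last 2 arrays correlated with the other LE/orl arrays at a mean r of -0.42 and -0.28 and with the LE/wt arrays of the third set at 0.37 and 0.33. The 5′ minus 3′ signal of the beta-actin and GAPDH controls, a measure of RNA and labelling quality, was -7.23 to -6.06 in the 13 LE/orl arrays, -4.16 and -4.32 in the 2 that stood apart and -4.73 to -3.46 in LE/wt. Strain, sex and the LE/wt step to GD20 therefore run across these sets and cannot be told apart from them. The authors left the same 2 arrays out of the means in their lists. Within sets lie the LE/wt step from GD18 to GD19 and, without those 2 arrays, the days of LE/orl.

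**Figure D3:**
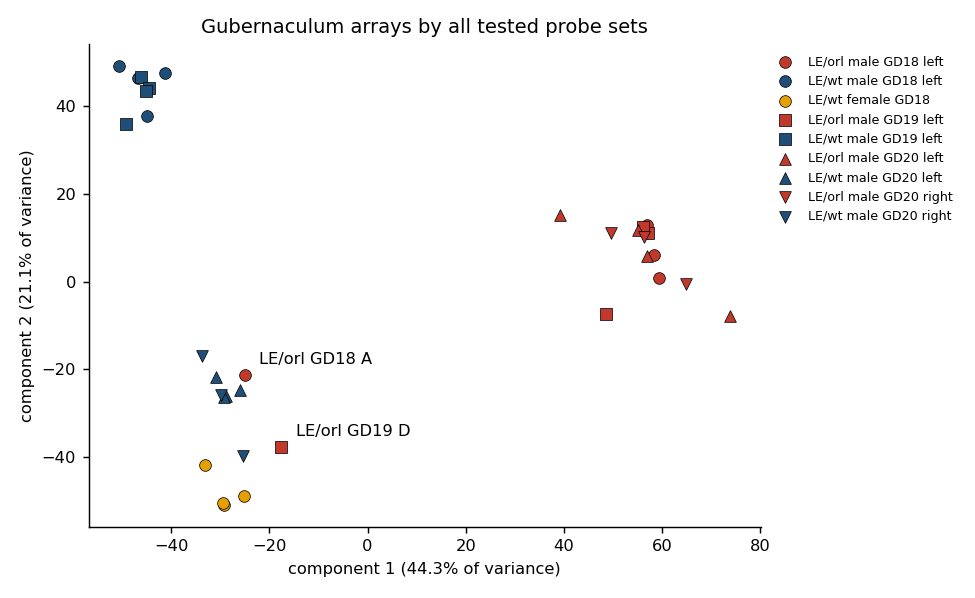
Gubernaculum arrays on the first 2 principal components of all tested probe sets, which hold 44.3% and 21.1% of the variance. LE/orl GD18 A and GD19 D are labelled and lie with LE/wt females and LE/wt males of GD20, away from the other LE/orl arrays.

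Within LE/orl, part of the matrix genes were higher at GD20 than at GD18. Without the 2 arrays 11 of the 37 probe sets were higher at GD20 and 1 lower, against 3.51% and 2.38% of all probe sets, a comparison added after the data were seen. Of the 35 probe sets of matrix genes 10 were higher and 1 lower. All 12 calls fell among the 31 selected probe sets of the authors' gubernaculum or wild type lists, and 0 among the 6 found only in the testis list. Those lists were drawn from gubernaculum arrays of this series, so the counts are no independent evidence for matrix genes. The median difference was 0.48 for selected probe sets and -0.06 for all. Of the second list, outside the symbol rule but likewise found only in the authors' lists, 1 of 29 probe sets was higher and 1 lower, with a median of 0.20. With both arrays kept 10 of the selected probe sets were higher and 0 lower. Without the 2 arrays, the count called in either direction fell from 12 to 5 when GD18 replicate C was also left out. It fell to 5 as well when GD18 replicate D was left out instead. GD18 then held 2 arrays, and whether group size or these arrays lowered the count was not tested. Over the same step 7 of 12 skeletal muscle probe sets of the authors' lists were higher and 0 lower, with Ckm at 1.99. Their part in the matrix differences was not tested.

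Lama2 and Col14a1 show this course in LE/orl. Lama2 read 9.73, 9.45 and 9.39 at GD18 in replicates B, C and D (and 9.16 in A), 9.73, 9.82 and 9.73 at GD19 in A, B and C (and 10.00 in D), and 10.75, 10.54, 10.54 and 10.56 at GD20. The GD20 arrays were above all others, by 1.07 ± 0.27 over GD18 (limma adjusted p = 0.0130). Col14a1 read 10.88, 10.86 and 11.14 at GD18 (10.83 in A), 11.61, 11.98 and 11.49 at GD19 (12.02 in D), and 12.15, 11.51, 12.35 and 11.93 at GD20, so that all GD18 arrays lay below both later days. Its GD20 difference was 1.02 ± 0.18 (limma adjusted p = 0.000939), 2.04-fold.

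The other genes higher at GD20 in LE/orl were Mgp by 1.23, Col6a1 by 0.95, Mmp23 by 0.82, Lox 1368171_at by 0.74, Col18a1 and Lamc1 by 0.70 each, Col5a1 1376099_at by 0.67, Dcn by 0.64 and the muscle gene Itgb1bp2 by 1.25. Col18a1 was dim, its 13 LE/orl arrays of the first set lying between 4.83 and 6.01, around the minimum of log2 5. Fbn2 alone was lower, by -0.76. Col1a2 (0.10), Loxl1 (0.05), Col6a3 (0.39) and the 3 probe sets of Ogn (0.48 to 0.63) were not called. Taken in single steps, Col14a1 was the only selected probe set called between GD18 and GD19 in LE/orl with all arrays, at 0.85 ± 0.17 (limma adjusted p = 0.0368), against 0.0789% of all probe sets higher and 0.0225% lower. That call was lost without any of GD18 A, B or C or GD19 B or D, with 0 called in each case. Between GD19 and GD20 limma called 0, with 6 higher and 1 lower at an unadjusted p under 0.05, where 10.5% of all probe sets passed in either direction. After adjustment 0.0564% of all probe sets were higher and 0.0225% lower.

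Between GD18 and GD19 in LE/wt males limma called 0 of 37 selected probe sets, against 0.158% of all probe sets higher and 0.0789% lower. At an unadjusted p under 0.05, 13 were higher and 0 lower, while 7.09% of all probe sets passed in either direction. The median difference was 0.34 for selected probe sets and 0.01 for all. Over this step 0 of 12 skeletal muscle probe sets were called, with a median of 0.71 and a range of 0.39 to 1.57, and for 6 of them the GD19 arrays lay above all GD18 arrays. Their part in the matrix differences was not tested. For 8 selected probe sets the GD19 arrays lay above all GD18 arrays: Lox (0.70 and 0.78), Itgb1bp2 (0.91), Mgp, Col6a1 and Col14a1 (0.56 each), Col1a2 (0.46) and Col6a3 (0.41), with limma adjusted p from 0.146 to 0.614. How many of all probe sets were so separated was not counted, so these 8 and the 6 of muscle have no background beside them. Col1a2 read 13.00, 13.36, 13.41 and 13.34 at GD18 and 13.64, 13.82, 13.66 and 13.83 at GD19, with no overlap. Lama2 differed most, by 1.06 ± 0.25 (limma adjusted p = 0.0695), but GD19 replicate C (8.79) lay inside the GD18 range of 8.10 to 9.27.

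**Figure D4:**
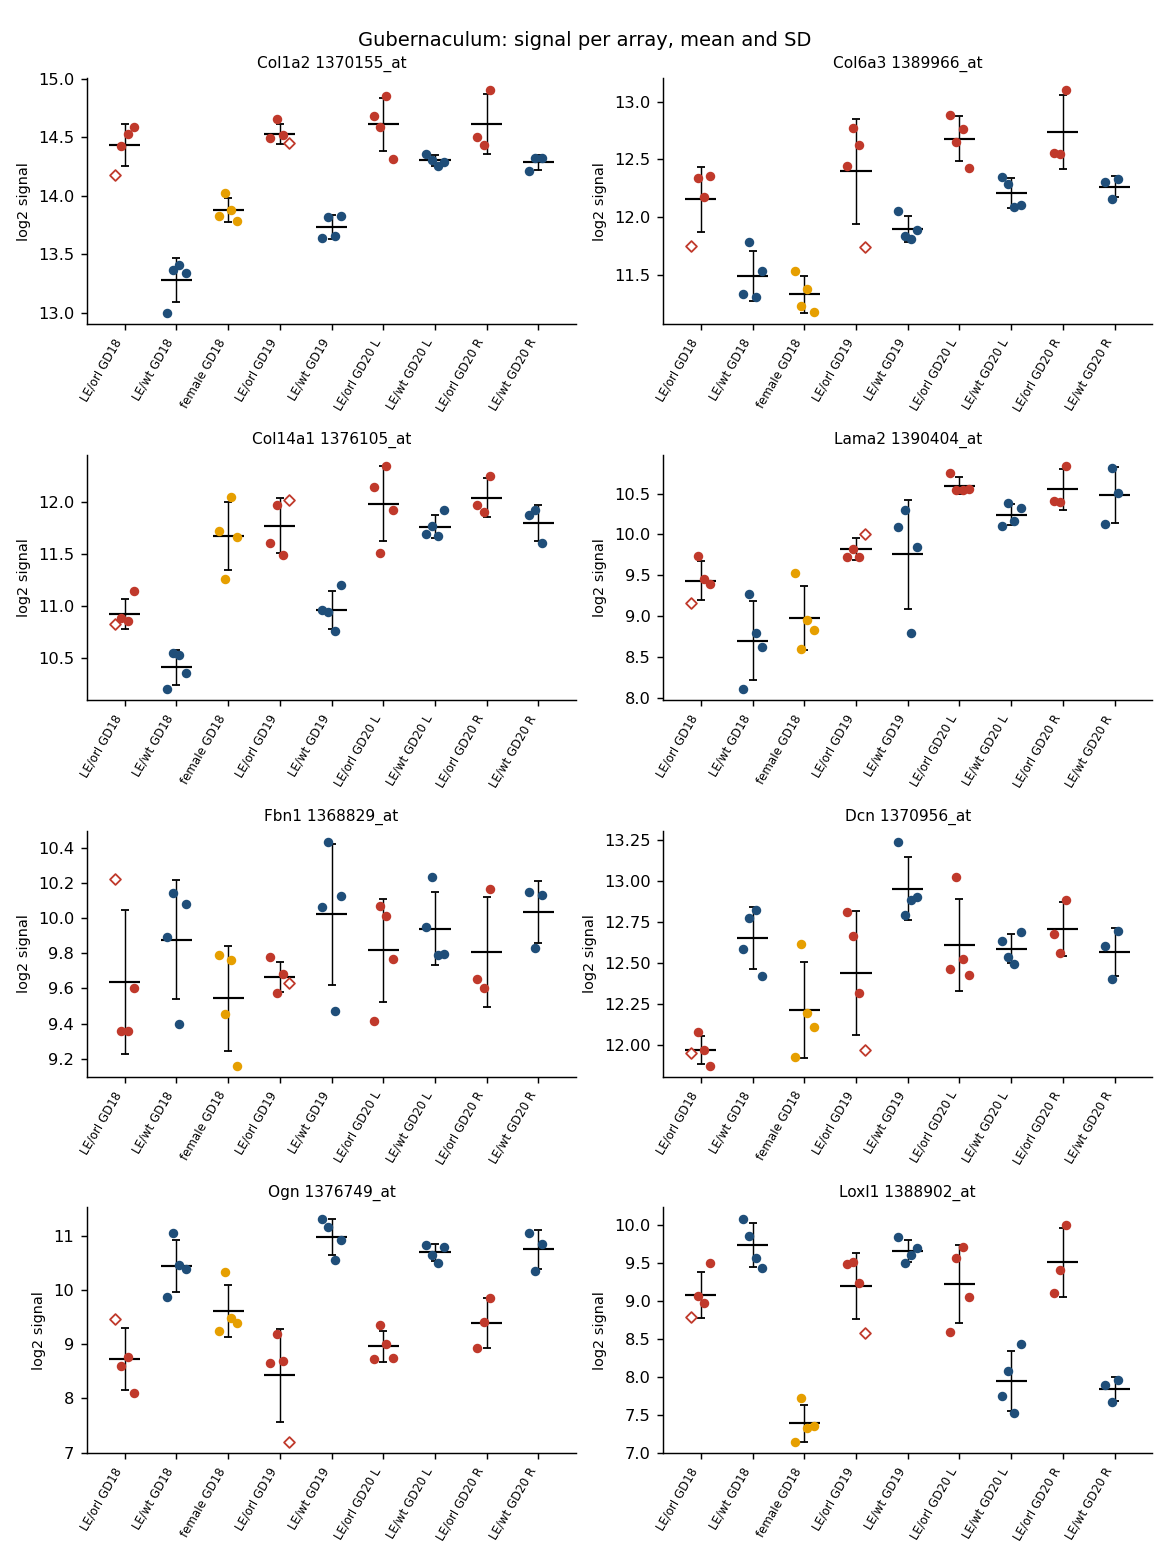
Log2 signal of Col1a2, Col6a3, Col14a1, Lama2, Fbn1 (1368829_at), Dcn, Ogn (1376749_at) and Loxl1 in each gubernaculum array, by strain, day, side and sex, with open diamonds for LE/orl GD18 A and GD19 D and lines for the mean and SD of each group. Col1a2 lies between 14.2 and 14.9 in all LE/orl arrays and between 13.00 and 13.83 in LE/wt males at GD18 and GD19. In LE/wt males at GD20 it lies between 14.21 and 14.36, inside the LE/orl range, and in LE/wt females between 13.78 and 14.02.

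Between strains at GD18, across the sets named above, 15 of 37 probe sets were higher in LE/orl (40.5%) and 9 lower (24.3%), against 27.2% and 24.1% of all probe sets. Since so many of all probe sets were called, the count says little of matrix genes as a group. The counts at GD19 were 13 and 9, against 26.6% and 25.9% of all, at GD20 left 14 and 8, against 20.1% and 26.9%, and at GD20 right 12 and 8, against 18.1% and 20.3%. With the 5′ minus 3′ control signal as a covariate 12 probe sets were called at GD18, 13 at GD19 and 1 on each side at GD20. The shares of all probe sets given here are from the fit without that covariate. Without LE/orl GD18 A the GD18 counts were 16 and 8, and without GD19 D the GD19 counts were 16 and 7. Of the change in strain difference between GD18 and GD20, 6 probe sets were positive and 4 negative, against 10.4% and 17.3% of all.

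Of the type I collagen chains, Col1a2 differed in every array at GD18. It read 14.18, 14.43, 14.53 and 14.59 in LE/orl at GD18, against 13.00, 13.36, 13.41 and 13.34 in LE/wt. No array overlapped, the difference was 1.15 ± 0.13 (limma adjusted p = 5.34e-08), and replicate A, which grouped with LE/wt arrays, was itself 0.90 above the LE/wt mean. At GD19 the difference was 0.79, with replicate D 0.72 above the LE/wt mean. At GD20 the strains overlapped: Col1a2 read 14.68, 14.59, 14.86 and 14.32 in left LE/orl gubernacula, against 14.36, 14.31, 14.25 and 14.29 in LE/wt, and the strain difference had changed by -0.84 since GD18.

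Of the other matrix genes at GD18, Lox 1368172_a_at (1.71), Lamb1 (1.14), Bgn (0.85), Lama2 (0.73), Col6a3 (0.67) and Col14a1 (0.52) were higher in LE/orl. Mgp (-1.54), Mmp23 (-1.69) and Dcn (-0.69) were lower. Replicate A alone stood above the LE/wt mean by 0.88 for Lox, 1.16 for Lamb1, 0.73 for Bgn and 0.41 for Col14a1, and below it by 1.05 for Mgp, 1.05 for Mmp23 and 0.70 for Dcn. For Lama2 (0.46 above) and Col6a3 (0.26 above) that array lay inside the LE/wt range, and Fbn2 lay at -0.09 in it. For Col5a1 1369955_at the other 3 LE/orl arrays averaged 1.89 above LE/wt, and replicate A lay at -0.12.

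Loxl1, the elastic fibre crosslinking enzyme, differed between strains in opposite directions at GD18 and GD20. At GD18 it was lower in LE/orl by -0.66 (limma adjusted p = 0.0260), reading 8.78, 9.06, 8.98 and 9.50 in LE/orl, against 10.08, 9.85, 9.57 and 9.44 in LE/wt. At GD20 left it was higher by 1.28, reading 8.59, 9.57, 9.71 and 9.05 in LE/orl, against 7.75, 8.07, 7.53 and 8.43 in LE/wt. The LE/wt arrays of these days lie in different sets, and the strain difference changed by 1.94 between them. LE/orl GD18 A and GD19 D (8.78 and 8.58) lay above all 11 LE/wt arrays of the set they grouped with, of which the females read 7.14 to 7.72. Itgb1 1387346_at moved with the sets, at -3.01 for LE/orl against LE/wt at GD20 left, where LE/orl GD18 A and GD19 D (9.49 and 9.50) lay within the LE/wt GD20 range of 9.43 to 10.5.

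Ogn stood out for a difference that did not follow the sets. Its probe set 1385248_a_at was higher in all 15 LE/orl arrays (8.99 to 10.4) than in all 19 LE/wt arrays (6.22 to 8.66), as were 0.282% of all probe sets, and 0.271% were lower in all. At GD18 it read 10.40, 9.44, 9.39 and 8.99 in LE/orl, against 6.22, 7.79, 7.34 and 7.71 in LE/wt males, a difference of 2.29 ± 0.29 (limma adjusted p = 4.18e-07). The probe set 1376749_at pointed the other way. It was lower in all 15 LE/orl arrays (7.19 to 9.84) than in the 15 LE/wt male arrays (9.87 to 11.3), and LE/wt females at 9.25 to 10.3 reached into both ranges. How many of all probe sets were so separated was not counted. The third probe set, 1383263_at, overlapped in that comparison. It was called lower in LE/orl at GD19 (-1.18), GD20 left (-1.76) and GD20 right (-1.44). The split between 1385248_a_at and 1376749_at appeared in the testis at GD19 as well, as given above.

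Probe sets of 1 gene also disagreed elsewhere. For Col1a1, 1388116_at was lower in LE/orl at GD18 by 1.85 and 1370864_at differed by 0.10. For Lox, 1368172_a_at differed by 1.71 and 1368171_at by 0.40. The direction of Col1a1 and Lox between strains is therefore given by probe set only. The probe sets of Itgb1 were both lower in LE/orl at GD20 and differed in size, by -3.01 and -0.97 on the left and by -2.96 and -0.86 on the right.

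**Figure D5:**
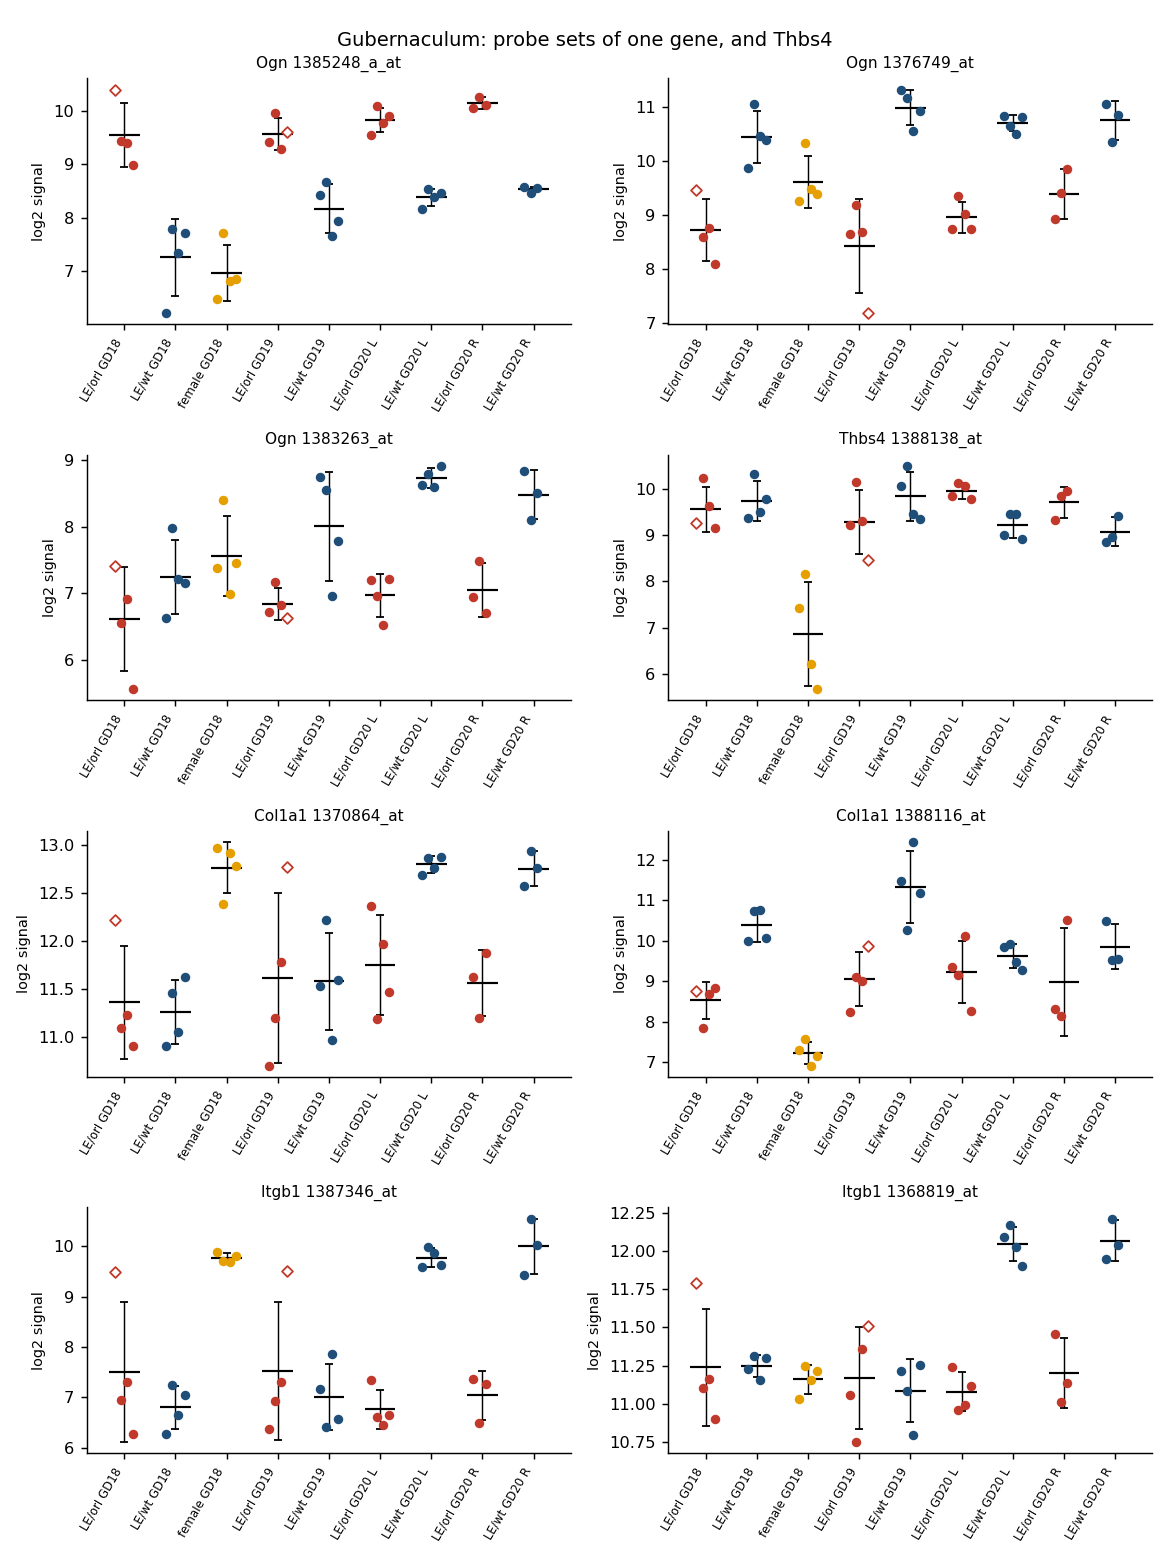
Log2 signal in each gubernaculum array for the 3 probe sets of Ogn, for Thbs4, and for the 2 probe sets each of Col1a1 and Itgb1, with open diamonds for LE/orl GD18 A and GD19 D and lines for the mean and SD of each group (red LE/orl, blue LE/wt males, orange LE/wt females). For Ogn 1385248_a_at every LE/orl array (8.99 to 10.4) is above every LE/wt array (6.22 to 8.66), while for 1376749_at the LE/orl arrays are below the LE/wt males.

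Between the sexes in LE/wt at GD18, with males and females in different sets, 10 of 37 probe sets were higher in males (27.0%) and 8 lower (21.6%), against 23.6% and 29.5% of all probe sets. Thbs4 read 9.37, 10.33, 9.49 and 9.78 in males, against 7.42, 8.16, 6.22 and 5.66 in females, and was 2.88 higher in males without overlap. Loxl1 (2.35), Mmp23 (2.09), Fbln1 (1.75), Mgp (1.62) and Col1a1 1388116_at (3.16) were also higher in males. Itgb1 1387346_at (-2.97), Col1a1 1370864_at (-1.50), Col14a1 (-1.27), Lamb1 (-1.21) and Col1a2 (-0.60) were lower. Set against all 15 LE/wt male arrays, which lie in 2 sets, females remained lower in every array for 5 probe sets (Fbln1, Col1a1 1388116_at, Mgp, Thbs4 and Mmp23) and higher for 1 (Col18a1), while 6.9% and 9.01% of all probe sets did so. Thbs4 was 5.66 to 8.16 in females and 8.85 to 10.5 in those males. Col18a1 was dim, at 5.32 to 5.79 in females, 4.40 to 5.16 in males of GD18 and GD19 and 4.48 to 4.85 in males of GD20, around the minimum of log2 5.

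From GD19 to GD20 in LE/wt males, a step between sets, 10 of 37 probe sets were higher and 6 lower, against 21.7% and 18% of all. Itgb1 was higher by 2.77 and 0.96, Bgn by 0.98, Col14a1 by 0.80 and Col1a2 by 0.57, while Loxl1 and Col1a1 1388116_at were lower by -1.71 each, Mgp by -1.20 and Adamts7 by -1.17. Between the sides at GD20 limma called 0 selected probe sets, with 0 at an unadjusted p under 0.05, and 0% of all probe sets. At that threshold 1.65% of all probe sets passed. The fit behind these counts did not pair the sides of a fetus.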

How the data were processed

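The authors deposited a table of log2 signals for 15923 probe sets on 54 arrays, GCRMA being named in the submitters' processing notes, and gene lists whose group means are intensity values on a linear scale. Per the deposited methods, the lists came from limma in affylmGUI. The lists served here only to find the genes (3008 of 3922 listed probe sets had 1 symbol; 28 symbols were current in RefSeq and 1 was a synonym) and every value comes from the log2 table. Markers of other cells and the second list of matrix genes were likewise looked up only among listed probe sets with 1 symbol. The labels do not state which arrays were normalised as 1 batch. The number of arrays limits the precision.

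Per tissue, limma 3.58.1 in R 4.3.3 was fitted to all groups over probe sets without the 57 controls that reached log2 5 in at least 3 gubernaculum or 5 testis arrays, with Benjamini-Hochberg adjustment over all of them. The fit was tested on simulated data. Alternatives changed the signal minimum, normalisation, probe sets per gene, groups in the fit, arrays left out, a replicate block and the 5′ to 3′ index as covariate. Same-letter arrays of different groups had a median correlation of -0.0088 in the gubernaculum and 0.041 in the testis, so letters do not pair them. Left and right gubernacula of GD20 share fetuses by the labels (r from -0.35 to 0.55).

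Named are the 8 genes Col1a2, Col6a3, Col14a1, Lama2, Fbn1, Dcn, Ogn and Loxl1, plus per comparison up to 4 called probe sets of highest and lowest difference whose arrays do not overlap; others are named within their class. The members and lists were chosen with earlier results of these data known.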

Additional observations from a re-analysis of the deposited data

Results flagged for a closer look

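In 6 of 88 groups examined for the named genes 1 array lay far from the others of its group, and chance alone gives about 1 in 20. In the gubernaculum these were Lama2 in LE/orl GD20 left replicate A (10.75), Dcn in LE/orl GD20 left replicate B (13.03) and Col1a2 in LE/wt GD18 replicate A (13.00). In the testis they were Fbn1 1368829_at in LE/orl GD19 replicate C (9.58), Col1a2 in LE/wt GD17 replicate B (10.53) and Ogn 1385248_a_at in LE/wt GD19 replicate A (7.63).

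The strain difference (LE/orl minus LE/wt) differed between days by the interaction term of the limma fit. In the gubernaculum from GD18 to GD20 it changed by -0.84 for Col1a2, 0.71 for Dcn and 1.94 for Loxl1, across the array sets described above. In the testis from GD17 to GD19 it changed by 1.82 for Fbn1 1387351_at and 1.04 for Fbn1 1368829_at, by 1.63 for Col14a1, by 1.28 for Lama2, by 1.22 for Ogn 1385248_a_at, by 1.06 for Col6a3, by 0.81 for Dcn, by 0.63 for Col1a2 and by 0.47 for Loxl1.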

How the results depend on the processing

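With the control probe index (5′ minus 3′) added as covariate, which differs between the array sets, the called matrix probe sets numbered 12 at GD18, 13 at GD19, 1 at GD20 left and 1 at GD20 right between strains in the gubernaculum, 1 between GD18 and GD19 in LE/wt, and 9 for the change of the strain difference in the testis. Col6a3 then reversed to -0.13 at GD19 and -0.25 at GD20 left. The cause was not tested. Shares of all probe sets called with this covariate are not given here. With 1 probe set per gene, 13 were called between strains at GD20 right and 3 in the testis at GD19, where fewer probe sets were counted. The LE/orl count for GD18 to GD19 was 0 with a replicate block, 0 with only the groups compared and 0 with the authors' 2 arrays left out. The replicate block by letter kept the direction of all 120 single differences and lost the call of 1, and the fetus block kept all 33.

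Leaving out 1 replicate at a time gave 21 to 24 called probe sets for strain at GD18, 19 to 22 at GD19 and at GD20 left, 16 to 19 at GD20 right, 9 to 12 for its change, 15 to 18 for sex, 14 to 18 for LE/wt GD19 to GD20, 0 to 1 for LE/orl GD18 to GD19 and 5 to 11 for LE/orl GD18 to GD20. For LE/wt GD18 to GD19 it gave 0 to 1, with 1 without GD18 replicate B or GD19 replicate C. In the testis it gave 25 to 27 at GD17, 4 to 7 at GD19, 19 to 24 for the change, 27 to 29 for LE/wt days and 34 to 36 for LE/orl days. Of 1196 single differences so refitted 85 lost their call and 0 reversed. The comparison of LE/orl GD18 with GD20 and the fetus block were chosen after seeing the data.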
